A study of Ovis aries with 6 samples.

Results

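The follicle-stimulating hormone (FSH) receptor FSHR and the luteinizing hormone (LH) receptor LHCGR were read in single cells of the sheep ovary. The prolactin receptor PRLR was chosen with them. The 3 genes were chosen by name and not by a rule on their values, though earlier results of these data were known. FSHR and LHCGR were measured among 30574 deposited features, while PRLR was not analysed here, as no feature was found under that symbol. The cells came from 6 adult Hu ewes, a prolific sheep breed, killed at estrus. The HLS group held 3 ewes with a litter size of at least 3, the LLS group held 3 ewes with a litter size below 2, and no treatment of either group is named. From each ewe a single ovary was digested whole and sequenced as 1 library with the 10x 3′ chemistry, so each replicate is a separate animal and cell types enter in the proportions that the digestion released.

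FSHR and LHCGR are G protein-coupled receptors that bind the pituitary gonadotropins and raise cyclic AMP inside the cell. In textbook physiology FSH acts on granulosa cells, where it drives growth of the follicle and the aromatase that makes estradiol. LH acts on theca cells, where it drives androgen synthesis, and on granulosa cells of the preovulatory follicle once these have gained its receptor. In the sheep assembly ARS-UI_Ramb_v3.0 both genes lie on chromosome 3, with 3 annotated genes between them, 1 of which codes for a protein.

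The libraries held 7992 to 9135 barcodes and 43329214 to 75549906 UMI (unique molecular identifiers, each standing for 1 captured transcript). Of 52290 barcodes in all, 38464 passed the filters and 36457 cells remained after 2007 doublets were removed. Median depth ran from 5234 to 9873.5 UMI per cell, and a pair of libraries shared 13 to 28 barcode sequences. Cells were clustered without FSHR and LHCGR, and clusters were named from marker genes that hold neither receptor. Marker levels were compared over granulosa-like, theca-like, stromal-like, perivascular-like, endothelial-like and immune-like cells only. The same markers had named the clusters, so the counts below largely follow from the naming and do not test it. The markers of granulosa-like cells were highest in that type for 10 of 10 genes. Those of theca-like cells were highest in theca-like cells for 4 of 5, with STAR higher in immune-like cells. Stromal-like (7 of 7), perivascular-like (7 of 7) and endothelial-like cells (8 of 8) had all their own markers highest. Over all barcodes FSHR had 3475 UMI and LHCGR 36097 UMI. Levels are given as UMI of the gene per 10000 UMI of the cells, summed per ewe. FSHR and LHCGR levels are not compared with each other.

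FSHR was a granulosa-like transcript in all 6 ewes. In the 2932 granulosa-like cells the FSHR level was 0.812, 1.31 and 1.12 UMI per 10000 in HLS1, HLS2 and HLS3. It was 0.878, 1.15 and 0.955 in LLS1, LLS2 and LLS3. The mean was 1.04 ± 0.188 (SD, n = 6), with HLS1 the lowest and HLS2 the highest ewe, and no ewe of any other cell type came near this range. Schwann-like cells came next with a mean of 0.028, which rests on 2 UMI in 136 cells, both in LLS2. The stromal-like (0.0062), theca-like (0.0065), perivascular-like (0.0074), immune-like (0.0065) and endothelial-like cells (0.0050) lay at or below 0.0074. No FSHR UMI was seen in the 106 luteal-like cells, 104 of them from LLS3, which allows a share of cells with a UMI of up to 2.83%. The granulosa-like level exceeded the Schwann-like level in 6 of 6 ewes, by 6.0 ± 1.63 (SD) on the log2(CPM + 1) scale, with CPM as 100 times the level given here. The two-sided exact sign-flip test gave p = 0.03125, the smallest that 6 ewes allow. After adjustment over the 22 neighbouring pairs of both genes it was 0.229 and did not pass 0.05. A pair could pass only if most of the 22 pairs had the smallest p. The adjusted value therefore says little about this gap. Among the other 11 types, none of the 10 neighbouring pairs in the order of FSHR levels differed beyond its spread (lowest exact sign-flip p = 0.281). Cell types were built from other genes of the same cells, so these tests are descriptions. In the ewes without an FSHR UMI in Schwann-like cells, the size of the gap depends on the 1 CPM added before the log.

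Granulosa-like cells were 4.41% to 16.1% of the cells of a library and held 91.0% to 96.3% of its FSHR UMI. Single cells carried few molecules. Of the 1362 granulosa-like cells with an FSHR UMI, 658 had exactly 1, 123 cells (4.20% of all granulosa-like cells) had at least 5, and the highest count was 11. The share of granulosa-like cells with an FSHR UMI was 44.2% ± 9.13 (SD, n = 6 ewes; range 31.9% to 53.6%) at a median depth of 8185 UMI. In endothelial-like cells, which should lack the gene, it was 0.457% at 8569.5 UMI. With every cell thinned to 2000 UMI, which left out 313 granulosa-like cells, the shares were 18.0% ± 2.92 and 0.0691%. At this depth a granulosa-like cell without an FSHR UMI was not read as lacking the receptor.

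**Figure D1:**
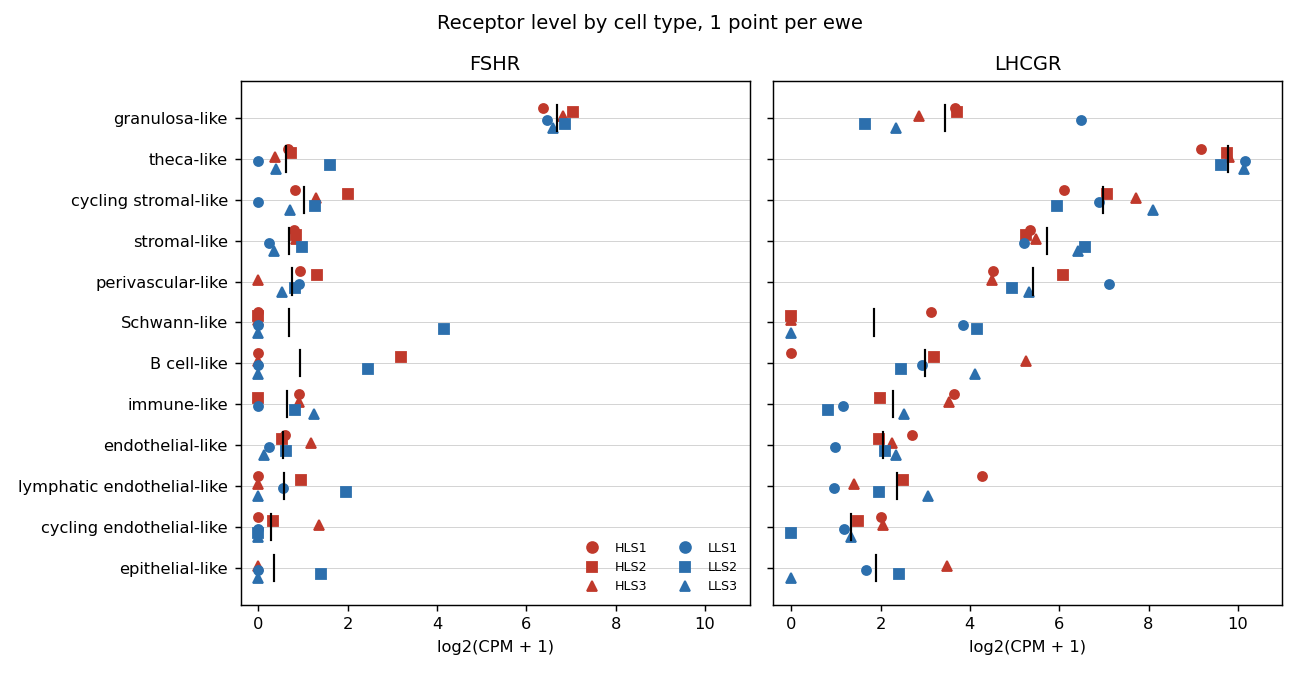
FSHR (left) and LHCGR (right) by cell type, as log2(CPM + 1) on the horizontal axis, with 1 point per ewe that had at least 10 cells, red for HLS, blue for LLS, and a black line at the mean. For FSHR only the granulosa-like points stand away from 0 in every ewe, and for LHCGR the theca-like points are highest, followed by cycling stromal-like, stromal-like and perivascular-like points.

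Within granulosa-like cells FSHR was read in 10 states, with 109 cells whose leading genes included PECAM1, VWF and COL1A1 placed in none. The highest level lay in the cumulus-like state, 225 cells led by AMH, VCAN and FST, genes of granulosa cells in growing follicles and around the oocyte. In it the FSHR level was 1.95 and 2.06 in HLS2 and HLS3 and 2.17, 2.50 and 1.93 in LLS1, LLS2 and LLS3, with a mean of 2.12 ± 0.231 (SD, n = 5), while HLS1 had 9 such cells and was not counted. Cycling granulosa cells followed with 1.34 ± 0.178 (n = 5; lowest 1.16, highest 1.57), so that the lowest cumulus-like ewe lay above the highest cycling one. The cumulus-like level was higher in 5 of 5 ewes, by 0.67 ± 0.28 on the log2 scale, with an exact sign-flip p of 0.0625, the smallest that 5 ewes allow, and 1.0 after adjustment over 16 pairs.

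Below these came a state led by ANGPT2, with 1.27 ± 0.0601 (n = 4), and a state led by ribosomal genes such as RPS12, with 1.10 ± 0.349 (n = 6). The RPS12-led cells stood apart in quality, with a median of 2708 UMI and 0.775% mitochondrial UMI, and their part in that level was not tested. The mural-like state, 574 cells that carry the genes of the follicle wall lining, had an FSHR level of 0.706, 0.708 and 1.30 in the HLS ewes. In the LLS ewes it was 0.563, 1.09 and 1.18, giving 0.924 ± 0.303 (n = 6) with overlapping groups. Of the mural-like cells, 205 formed a sub-cluster led by MX1 and ISG15, with 98.0% of them from LLS2. The other 17 mural-like cells of LLS2 had an FSHR level of 1.65. All 5 cumulus-like ewe values lay above all 6 mural-like ones. The lowest states were led by PTPRD, with 0.523 ± 0.359 (n = 6), and by FATE1, with 0.209 ± 0.0816 (n = 3 LLS ewes, 10 UMI). The PTX3-led (0.848 ± 0.203, n = 5) and PPP1R14A-led states (0.702 ± 0.464, n = 4) lay between. The FATE1-led cells, 58.4% of them from LLS2, had a higher marker score for epithelial cells (1.624) than for any granulosa state (1.279). The PPP1R14A-led cells scored 1.564 for stromal and 1.53 for mural markers. The PTPRD-led level was above the FATE1-led one in 3 of 3 ewes, by 0.42 ± 0.18 on the log2 scale, with an exact sign-flip p of 0.25, the smallest that 3 ewes allow. In the 6 neighbouring pairs between, the SD of the difference was larger than its mean.

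**Figure D2:**
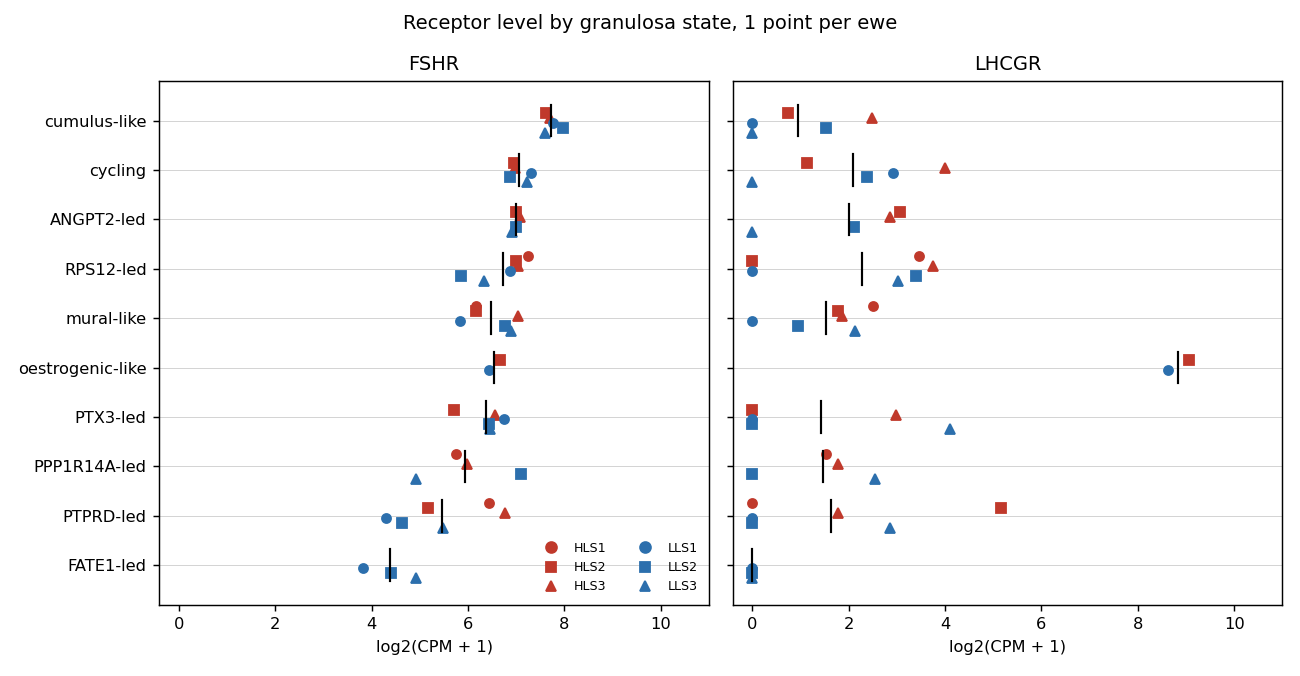
FSHR (left) and LHCGR (right) by granulosa state, as log2(CPM + 1) on the horizontal axis, with 1 point per ewe that had at least 10 cells of the state and a black line at the mean. FSHR was present in every state with the cumulus-like points farthest to the right. LHCGR points lay farthest to the right in the oestrogenic-like state, which has points for HLS2 and LLS1 only. In the other states the LHCGR points spread from 0 up to a level of 0.350 UMI per 10000, in the PTPRD-led state.

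LHCGR was highest in theca-like cells in all 6 ewes. In the 1878 theca-like cells its level was 5.78, 8.71 and 8.89 UMI per 10000 in HLS1, HLS2 and HLS3. It was 11.5, 7.82 and 11.3 in LLS1, LLS2 and LLS3, and the mean was 9.0 ± 2.16 (SD, n = 6). HLS1 was the lowest ewe, LLS1 and LLS3 were the highest, and the groups overlapped. Cycling stromal-like cells, 739 cells in division led by ALPL and LUM, came second with 0.675, 1.34 and 2.08 in HLS and 1.18, 0.613 and 2.74 in LLS (mean 1.44 ± 0.831). In them the theca markers CYP17A1 and INSL3 were at 0.422 and 0.464. Stromal-like cells had 0.0247 and 0.0317, and theca-like cells 3.27 and 3.16. ALPL was a leading gene of theca-like cells too, and whether this group holds dividing theca-like cells was not tested. The theca-like LHCGR level exceeded the cycling stromal-like one in 6 of 6 ewes, by 2.81 ± 0.65 on the log2 scale (exact sign-flip p = 0.03125, adjusted p = 0.229). The limit given for FSHR after adjustment holds for the LHCGR pairs too.

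Unlike FSHR, LHCGR graded off over several cell types. The stromal-like level was 0.560 ± 0.265 (n = 6) and lay below the cycling stromal-like one in 5 of 6 ewes, by 1.26 ± 1.04 on the log2 scale (exact p = 0.0625, adjusted p = 0.275). The perivascular-like level was 0.528 ± 0.448, and stromal-like and perivascular-like cells did not differ beyond their spread (log2 difference 0.30 ± 1.36, exact p = 0.625). Granulosa-like cells held 0.209 ± 0.338, below perivascular-like cells in 6 of 6 ewes by 1.96 ± 1.11 (exact p = 0.03125, adjusted p = 0.229). At a coarser clustering this last order turned (-0.16), where 738 of the 739 cycling stromal-like cells were placed among the granulosa-like ones. The granulosa-like mean was raised by LLS1 (0.894), and the median over ewes was 0.0895. The lowest levels were in epithelial-like (0.0418), endothelial-like (0.0342) and cycling endothelial-like cells (0.0180). In the luteal-like cells of LLS3 the level was 0.130, from 15 UMI.

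Theca-like cells were 1.29% to 7.60% of the cells of a library and held 55.4% to 85.7% of its LHCGR UMI. Stromal-like cells held 5.30% to 37.6% and perivascular-like cells 0.432% to 21.1%. A theca-like cell had a median of 8 LHCGR UMI and at most 114, and 1196 of them (63.7%) had at least 5. The share of theca-like cells with an LHCGR UMI was 80.3% ± 8.98 (n = 6), or 65.1% ± 8.84 after thinning to 2000 UMI. After thinning, the share was 6.34% in stromal-like cells, 7.49% in perivascular-like cells and 2.82% in granulosa-like cells. In endothelial-like cells it was 0.780%, and immune-like cells had 1.02%. At equal depth the theca-like share was several times that of each of these other types. Thinning left out 170 theca-like and 508 perivascular-like cells.

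The theca-like cells were not uniform in LHCGR. Among their 9 sub-clusters the mean level ran from 2.31 ± 0.909 (n = 5) to 15.1 ± 6.24 (n = 2). The lowest sub-cluster was led by the contractile genes TAGLN and ACTA2, had a median of 2410 UMI per cell and 0.875% mitochondrial UMI, and a CYP17A1 level of 0.834. CYP17A1 is the enzyme that makes androgens in theca cells. The 3 sub-clusters with an LHCGR level above 10 were those led by ECRG4 (15.1), CYP17A1 (14.6) and MSMB (12.9). They had the 3 highest CYP17A1 means over ewes, at 5.53, 6.93 and 7.22. A high CYP17A1 level in the CYP17A1-led sub-cluster follows from its leading gene. HLS2 gave 81.7% of the ECRG4-led cells, LLS3 69.6% of the CYP17A1-led and LLS2 47.0% of the MSMB-led ones. The ECRG4-led mean rests on 10.7 in HLS2 and 19.5 in LLS3. The MSMB-led CYP17A1 mean of 7.22 does not hold for LLS2. That ewe had an LHCGR level of 9.48 in its MSMB-led cells, from 930684 UMI in all. Over all its theca-like cells it had only 87 CYP17A1 UMI beside 1156 LHCGR UMI. In the MSMB-led sub-cluster INSL3, a peptide hormone of theca cells, reached 9.16. Dividing theca-like cells, a sub-cluster led by COL1A1 and SPC24, had 5.16 ± 0.870 (n = 5) for LHCGR and 1.21 for CYP17A1. A sub-cluster led by the granulosa genes NMB and IGFBP2 (6.99) and one led by the endothelial gene KDR (5.53) were also among the theca-like cells. CYP17A1 and INSL3 were naming markers, so their presence in theca-like cells is given by the choice of cells.

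**Figure D3:**
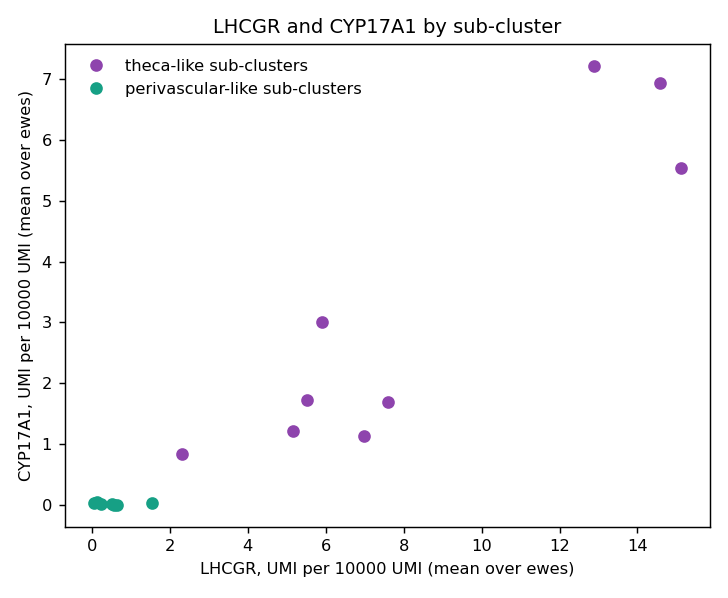
Mean LHCGR level (horizontal) and mean CYP17A1 level (vertical), both in UMI per 10000 UMI over the ewes with at least 10 cells, for each sub-cluster of theca-like (purple) and perivascular-like cells (green) with at least 2 ewes. Theca-like sub-clusters spread from 2.31 to 15.1 for LHCGR, and the 3 farthest to the right are the highest for CYP17A1, while perivascular-like ones stay at or below 1.54 for LHCGR.

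The LHCGR outside theca-like cells sat in particular clusters. Of the 3 stromal-like clusters, the one led by LUM, COL1A1 and PTCH1, a fibroblast group of 2380 cells, had 0.934, 0.751 and 0.761 in HLS1, HLS2 and HLS3. It had 1.93, 2.16 and 1.28 in LLS1, LLS2 and LLS3, without overlap between HLS and LLS. The mean was 1.30 ± 0.610 (n = 6), against 0.180 in the cluster led by GSTM3 and ACTA2 and 0.0731 in the one led by SERPINF1 and DPT. Of the 2 perivascular-like clusters, the pericyte group led by RGS5 had 0.644 ± 0.517 and the smooth muscle group led by MYH11 0.0948 ± 0.0267. In the RGS5-led cluster LLS1 (1.60) and HLS2 (0.864) were highest, and the other ewes lay between 0.253 and 0.452. A sub-cluster whose leading genes included SPP1 and POSTN, with 101 cells from HLS2, 144 from LLS1 and 2 from LLS3, had 1.10 in HLS2 and 1.99 in LLS1.

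The amount of CYP17A1 beside LHCGR differed between these groups of cells. Theca-like cells had 40.3 CYP17A1 UMI per 100 LHCGR UMI (lowest ewe 7.53, highest 84.5). Endothelial-like cells, with their low LHCGR level, had 51.8 (32.5 to 74.5), cycling stromal-like cells 32.5, and granulosa-like cells outside the oestrogenic-like state 33.0. Those 3 ratios over all ewes lie within the range of the theca-like cells. Single ewes ran from 2.94 to 60.0 in cycling stromal-like and from 0 to 80.0 in the other granulosa-like cells. The LUM-led stromal-like cluster had 3.37 (0 to 6.83, all 6 ewes below the lowest theca-like ewe), and the RGS5-led perivascular-like cluster 2.52 (0 to 8.70). The remaining clusters of these types were not as low, on fewer LHCGR UMI. They had 12.5 (GSTM3-led, 351 LHCGR UMI), 22.7 (SERPINF1-led, 66 UMI) and 38.7 (MYH11-led, 31 UMI). The INSL3 ratio overlapped between the groups over the ewes, from 7.33 to 146.3 in theca-like, 0 to 51.6 in endothelial-like, 1.69 to 23.0 in LUM-led and 0.571 to 18.9 in RGS5-led cells. Over all ewes it was 33.5, 24.1, 5.65 and 2.76 in that order. Without HLS1 it fell to 17.3 in theca-like, 9.80 in endothelial-like and 2.59 in LUM-led cells, and without LLS1 it was 4.92 in RGS5-led cells. CYP17A1 and INSL3 had served as naming markers of theca-like cells. A high ratio there, and a low one in clusters named otherwise, thus follows in part from the naming. The ratio sets groups of cells side by side for 1 pair of genes and does not compare the levels of CYP17A1 and LHCGR.

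**Figure D4:**
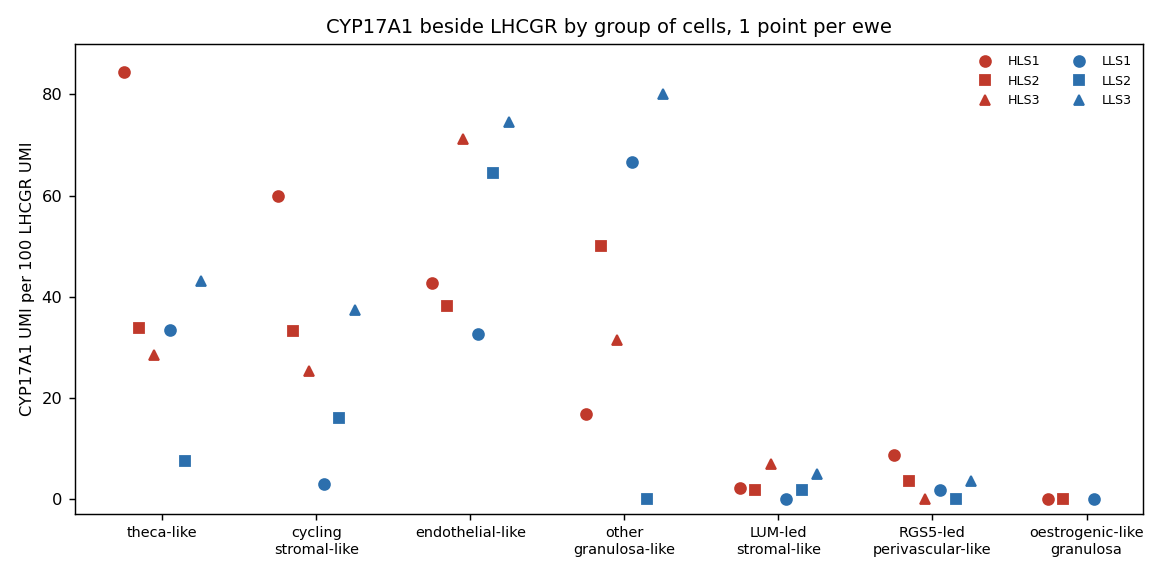
CYP17A1 UMI per 100 LHCGR UMI (vertical axis) in 7 groups of cells, with 1 point per ewe that had at least 3 LHCGR UMI in the group, red for HLS and blue for LLS. Theca-like, cycling stromal-like, endothelial-like and other granulosa-like points spread widely, while LUM-led stromal-like, RGS5-led perivascular-like and oestrogenic-like granulosa points lie at or below 8.70. CYP17A1 was a naming marker of theca-like cells.

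In granulosa-like cells LHCGR was concentrated in the oestrogenic-like state. This state was named from CYP19 (aromatase), HSD17B1 and INHBA and held 138 cells, 104 from LLS1, 25 from HLS2, 5 from HLS1, 3 from LLS3, 1 from LLS2 and none from HLS3. Its LHCGR level was 3.94 in LLS1 and 5.30 in HLS2, the only ewes with at least 10 cells, and it held 225 of the 337 LHCGR UMI of all granulosa-like cells. In the other 9 states the mean lay between 0 and 0.0729. In the oestrogenic-like cells no CYP17A1 UMI stood beside the 225 LHCGR UMI (0%, exact 95% interval 0% to 1.63% of both), and 2 INSL3 UMI were seen. Intervals and limits of this kind cover counting error only. The cells had a median of 2550.5 UMI and 1.16% mitochondrial UMI, against 12506 UMI and 3.83% in cumulus-like cells, and the part of this in the state was not tested. FSHR was present at 1.0 in HLS2 and 0.856 in LLS1.

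Known targets of the receptors were read in the same states, without a test between states. CYP19, a naming marker, was at 3.15 in oestrogenic-like, 0.313 in cumulus-like and 0.245 in cycling cells, and had no UMI in the 574 mural-like cells (limit 0.523% of cells). INHBA and INHA, subunits of activin and inhibin, were at 37.3 and 29.1 in oestrogenic-like cells, with INHA at 13.1 in cumulus-like cells. STAR, which carries cholesterol into the mitochondrion and rises in luteinizing cells, had 4 UMI in the oestrogenic-like cells. AREG, an LH-induced growth factor, had none in 138 cells (limit 2.17% of cells) and none in the PTPRD-led and RPS12-led states. TNFAIP6, from the list of LH-surge genes read below, was a leading gene of the oestrogenic-like state. PGR, the progesterone receptor, was at 0.349 in oestrogenic-like cells and between 0.0515 and 0.239 in the other states.

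FSHR and LHCGR were seen together in 66 of the 2932 granulosa-like cells, of which 1362 had FSHR and 149 had LHCGR. If the genes had fallen independently, 69.2 cells would have had both. In the oestrogenic-like state 32 of 138 cells had FSHR, 52 had LHCGR and 21 had both, against 12.1 under independence. In the other 2794 granulosa-like cells the count was 45, against 46.2. Deeper cells are more likely to show either gene, so these counts are descriptions. Of 14 theca-like cells with an FSHR UMI, 13 also had LHCGR, against 11.7.

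The rest of the pathway was read from fixed lists, naming up to 4 genes of each with the highest levels. Of the hormones themselves, LHB had 254 UMI, PRL had 5, and FSHB and CGA had none over the summed cell types (limit 0.0083% of cells each). Among related receptors LGR4 was at 0.531 in theca-like and 0.344 in granulosa-like cells, GHR at 0.328 in granulosa-like cells, and EPOR and LGR5 lay at or below 0.0085 in both. Of the cyclic AMP machinery, PRKAR2B, a regulatory subunit of protein kinase A, was highest in the types that held the receptors. Theca-like cells had a PRKAR2B level of 7.57, granulosa-like 6.65, stromal-like 2.43 and endothelial-like cells 0.103, with 11.9 in cumulus-like against 2.70 in mural-like cells. PRKAR1A, its sister subunit, stayed between 2.71 and 4.45 over the 6 largest types. AKAP12 and GNAI2 were highest in lymphatic and cycling endothelial-like cells. The receptor desensitisation genes APPL1, RGS2, GRK5 and GRK2 were also higher outside granulosa-like and theca-like cells, RGS2 with 4.78 in immune-like cells.

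Of the genes that FSH induces in culture, FST and INHA were among the markers that named granulosa-like cells, and INHBA helped to name the oestrogenic-like state, so where they lie is given by the choice of cells. FST, which binds activin, was at 6.15 ± 2.85 in granulosa-like cells, 25.2 in cumulus-like and 0.354 in mural-like cells. INHA was at 3.79 and INHBA at 3.74 in granulosa-like cells, and no other type exceeded 0.767 for either. Of the LH-supported steroid genes, FDX1 (8.77), CYP11A1 (6.26), CYP17A1 (3.27) and INSL3 (3.16) were highest in theca-like cells, with luteal-like cells not compared. CYP11A1, CYP17A1 and INSL3 had served as naming markers of theca-like cells. CYP11A1, which starts steroid synthesis, was at 1.69 in granulosa-like cells. The LH-surge list split, with TNFAIP6 among the leading genes of the oestrogenic-like state and PTX3 leading a further state. TIMP1 was at 178.5 and RUNX2 at 7.58 in mural-like cells, where LHCGR was 0.0234 and both genes had served as naming markers, against 3.27 and 0.0098 in cumulus-like cells. TIMP1 was also a leading gene of the MX1-led mural-like sub-cluster, which came mostly from LLS2. CEBPB and NR4A1 were highest in perivascular-like cells. On the side of prolactin signalling SOCS3, PTPN11, PTPN1 and STAT3 were expressed, SOCS3 with 9.78 in perivascular-like against 1.43 in granulosa-like cells. Of the prolactin-induced genes, SCARB1 was at 1.81 in theca-like cells, IRF1 was highest in perivascular-like cells and CISH in epithelial-like cells.

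By the likeness of their levels over 12 cell types, the genes closest to FSHR were XIRP1 (Pearson r = 0.988), MMP1 (0.983), GCG (0.982), MUSK (0.978) and PITX1 (0.962). The closest to LHCGR were HSPB7 (0.961), ERP27 (0.957), REG4 (0.953), LOC121818292 (0.951) and LOC105611883 (0.948). Over 46 sums by ewe and granulosa state, RUVBL1 (0.774), NR5A2 (0.766) and PTGES (0.760) were closest to FSHR, and SLC25A3 (0.718) was also among the closest. For LHCGR they were S1PR5 (0.597), LOC101123588 (0.578), KCNA4 (0.557), RAB12 (0.522) and LOC105605730 (0.516). FSHR and LHCGR themselves had r = 0.0060 over cell types and 0.109 over states. FSHR was low in every type but granulosa-like cells, so its r over cell types rests mainly on that type. MMP1, for one, was a leading gene of a mural-like sub-cluster, while FSHR was highest in cumulus-like cells. The points share the 6 libraries and their depth, so the r values are descriptions.

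FSHR did not pass the test between HLS and LLS. In granulosa-like cells, with the ewe values given above, HLS averaged 1.08 and LLS 0.996, and the groups overlapped. The log2 difference (HLS minus LLS) was 0.29 ± 0.20 (SE), with an edgeR adjusted p of 0.933 over 11906 genes. In that comparison 0 genes (0%) passed an adjusted p of 0.05, 577 (4.85%) had an unadjusted p below 0.05, and DESeq2 called 1. With HLS2 and LLS1 both left out the FSHR difference was 0.06. Within cumulus-like cells it was -0.11 ± 0.24 (edgeR adjusted p = 0.995), from 2 HLS and 3 LLS ewes. Within mural-like cells it was 0.04 ± 0.32 (edgeR adjusted p = 0.998), and it turned to -0.23 without HLS3 and -0.22 without LLS1. Most mural-like cells of LLS2 belonged to the MX1-led sub-cluster, and its part in this difference was not tested. In the RPS12-led state the FSHR level was 1.5, 1.26 and 1.30 in HLS and 1.16, 0.570 and 0.791 in LLS, without overlap (means 1.36 and 0.839), from 75 and 21 UMI. The exact permutation p was 0.1, the smallest possible, and this state was singled out after its values were seen, as 1 of 3 states with all 6 ewes. In the PTPRD-led state the means were 0.759 and 0.288, and the groups overlapped (exact permutation p = 0.2).

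In the cumulus-like comparison 5 of 5909 genes (0.0846%) passed, all lower in HLS, and FSHR was not among them. They were NDUFA4L2, SLC2A3, LOC101102327, P4HA1 and DMD, of which SLC2A3 (a glucose transporter) and P4HA1 (a collagen hydroxylase) are known to respond to low oxygen. The count depended on single ewes, with 0 genes without LLS1 or LLS2 and 2 without LLS3. Without HLS2 it was 39 and without HLS3 51, in fits that left 1 HLS ewe, which was assumed to vary like the LLS ewes. In the mural-like comparison 0 of 6970 genes (0%) passed edgeR, with 324 (4.65%) at an unadjusted p below 0.05, while DESeq2 called 4. These were DNAJB4, GPX3, LAMC1 and CYP11A1, all lower in HLS.

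The share of granulosa-like cells with an FSHR UMI was 51.1% in HLS and 37.2% in LLS, and the groups did not overlap. A two-sided exact permutation test gave p = 0.1, the smallest that 3 against 3 ewes allow. After thinning to 2000 UMI the shares were 19.1% and 17.0% (exact p = 0.5). Median depth of granulosa-like cells ran from 8339 to 12929.5 UMI in HLS and from 5150 to 8031 in LLS.

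LHCGR in theca-like cells did not pass the test either. HLS averaged 7.79 and LLS 10.2, with a log2 difference of -0.23 ± 0.25 (edgeR adjusted p = 0.965). Of 12252 genes 0 (0%) passed, 431 (3.52%) had an unadjusted p below 0.05, and DESeq2 called 0. The share of theca-like cells with an LHCGR UMI was 61.1% in HLS and 69.1% in LLS after thinning (difference -8.03 percentage points, exact p = 0.3), while before it HLS was higher by 6.17 points (exact p = 0.6). A p that misses the threshold in 3 against 3 ewes does not show equal levels.

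In stromal-like cells HLS1, HLS2 and HLS3 had LHCGR levels of 0.397, 0.371 and 0.438. LLS1, LLS2 and LLS3 had 0.363, 0.949 and 0.846. LLS2 and LLS3 were above all HLS ewes and LLS1 was below them, so the groups overlapped. The log2 difference was -0.73 ± 0.31 (edgeR adjusted p = 0.832), in a comparison in which 643 of 13810 genes (4.66%) had an unadjusted p below 0.05, 0 (0%) passed edgeR and DESeq2 called 1. LLS1 had the smallest share of its stromal-like cells in the LUM-led cluster, 9.38%, while HLS1, HLS2 and HLS3 had 18.3%, 26.7% and 36.0%, and LLS2 and LLS3 had 29.6% and 49.1%. Within the LUM-led cluster the means were 0.815 in HLS and 1.79 in LLS, and in the GSTM3-led cluster 0.105 and 0.256, in both without overlap. Each gave an exact permutation p of 0.1, the smallest possible, and these 2 of 5 clusters were singled out after their values were seen. The SERPINF1-led cluster went the other way, with 0.124 in HLS and 0.0223 in LLS and overlapping groups (exact permutation p = 0.2).

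Perivascular-like LHCGR was 0.218, 0.671 and 0.215 in HLS and 1.38, 0.299 and 0.392 in LLS. LLS1 was highest, HLS2 second, and the groups overlapped. The log2 difference was -0.85 ± 0.60 (edgeR adjusted p = 0.996), and without LLS1 it was 0.16. Of 10962 genes 0 (0%) passed, 325 (2.96%) had an unadjusted p below 0.05, and DESeq2 called 1. The share of perivascular-like cells in the RGS5-led cluster was 76.7%, 51.3% and 21.1% for HLS1 to HLS3 and 59.7%, 72.6% and 65.8% for LLS1 to LLS3.

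Granulosa-like LHCGR was 0.117, 0.120 and 0.0622 in HLS and 0.894, 0.0213 and 0.0408 in LLS. LLS1 stood far above the rest, and the other LLS ewes lay below every HLS ewe. The log2 difference was -1.37 ± 1.16 (edgeR adjusted p = 0.933). Without LLS1 it was 1.94, and without the oestrogenic-like cells, 104 of which came from LLS1, it was 0.98 (edgeR adjusted p = 0.991). The sign of the LHCGR difference in granulosa-like cells thus turned when 1 ewe was left out.

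**Figure D5:**
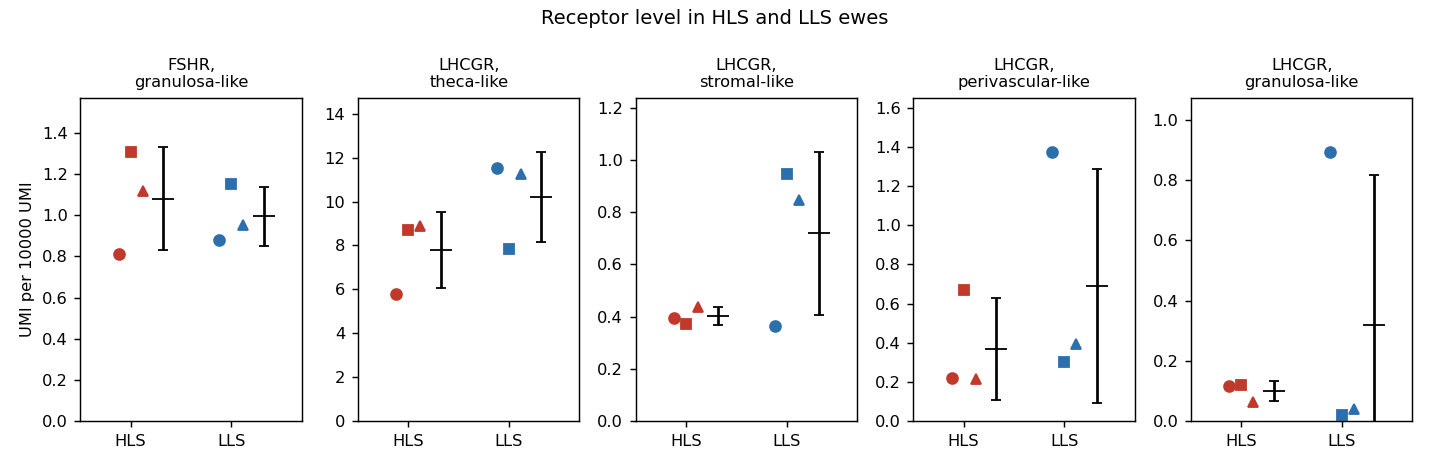
Level in UMI per 10000 UMI (vertical axes, each from 0) of FSHR in granulosa-like cells and of LHCGR in theca-like, stromal-like, perivascular-like and granulosa-like cells, with 1 point per ewe and the mean ± SD in black beside each group. The groups overlap in all 5 panels, and in the last LLS1, at 0.894, is far above the other 5 ewes.

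Of the pathway lists, no tested gene passed the edgeR test in granulosa-like, theca-like, stromal-like or perivascular-like cells. In mural-like cells CYP11A1, from the steroidogenesis list, was called lower in HLS by DESeq2 (-1.51, DESeq2 adjusted p = 0.020) but not by edgeR. Among the FSH-induced genes, 15 of 16 were tested in granulosa-like cells, with 0 higher, 0 lower and a median log2 difference of 0.0052, against 0.01 over all genes. The 15 LH-surge genes tested there had a median of 0.05. In theca-like cells the 11 steroidogenesis genes tested had a median of -0.23 and the 22 G protein and cyclic AMP genes -0.23, against -0.0030 over all genes. This was not particular to those lists. The FSH-induced genes had a median of 0.11 there. Every other list lay below all genes, from -0.35 for the prolactin-induced to -0.11 for the receptor desensitisation genes. INSL3 in theca-like cells was at 8.46, 2.23 and 1.45 in HLS and 3.66, 2.30 and 0.826 in LLS, with HLS1 far above the rest. Its log2 difference was 1.17 ± 0.71 (edgeR adjusted p = 0.965), and without HLS1 it turned to -0.21. CYP11A1 was at 5.6, 3.38 and 4.96 in HLS and 8.99, 7.10 and 7.51 in LLS, without overlap, but did not pass the test (-0.55 ± 0.29, edgeR adjusted p = 0.965). Without 1 ewe at a time its difference ran from -0.87 to -0.34.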

How the data were processed

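Single-cell suspensions of a single ovary per ewe were sequenced by the authors with 10x Genomics 3′ v3 chemistry. The matrices the authors deposited, 1 per ewe, hold unnormalized UMI counts of genes in barcodes and were made with Cell Ranger and STAR per the labels. The genome build is not given in the sources used here, so no coordinates or sequences are printed. Barcodes with under 200 genes, under 1000 UMI, a log10 genes to log10 UMI ratio under 0.7, over 10% mitochondrial or over 5% haemoglobin UMI were removed, as were simulated-neighbour doublets (0.8% expected per 1000 cells).

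Cells were clustered in Python 3.11.15 with leidenalg 0.10.2 (resolution 0.8, 2000 variable genes, 30 principal components, 20 neighbours) without FSHR and LHCGR. Clusters were named from markers, and granulosa-like, theca-like and perivascular-like cells were clustered again. The minimum marker scores (0.7 for types, 0.9 for states) were set after the clusters had been seen. A cluster without a name kept its leading gene. The receptors and gene lists were chosen with earlier results of these data known.

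UMI were summed per ewe for groups of at least 10 cells. HLS and LLS were compared in edgeR 4.0.16 by its quasi-likelihood test (TMM factors, low counts filtered) in R 4.3.3, with Benjamini-Hochberg adjustment at 0.05 over all genes, after a test on simulated data. DESeq2 1.42.0 was an alternative. Neighbours in the order of levels were compared by exact sign-flip tests of log2(CPM + 1) over ewes, and shares of cells by exact permutation tests, after thinning to 2000 UMI. All tests were two-sided. Named genes were the receptors, the 5 genes most like each (at least 20 CPM in a type), up to 4 of each pathway list by level in granulosa-like or theca-like cells, every gene called, hormones with a UMI, and CYP19, STAR, CYP17A1, AREG and PGR by state. Further genes name clusters or were named after their values were seen. Some genes that these rules name are not reported here.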

Additional observations from a re-analysis of the deposited data

How the results depend on the processing

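Of the values recomputed under other settings than leaving out an ewe, 122 kept their sign and their side of the threshold or stayed within the spread, 12 moved and 7 changed sign. No difference of FSHR or LHCGR between HLS and LLS passed an adjusted p of 0.05 under any setting. Fits that left out 1 ewe in turn are not counted in the following lowest values. The lowest edgeR or DESeq2 adjusted p was 0.892 for FSHR in granulosa-like cells. For LHCGR it was 0.756 in granulosa-like, 0.826 in stromal-like, 0.911 in theca-like and 0.918 in perivascular-like cells. For LHCGR in granulosa-like cells the log2 difference of -1.37 became 0.061 with a replicate block, 1.81 with HLS2 and LLS1 left out and 0.98 without oestrogenic-like cells, the last 2 settings being chosen after seeing the data. FSHR turned to 0.0017 in cumulus-like cells without a filter on low counts and to -0.063 in mural-like cells without TMM factors. The order of perivascular-like over granulosa-like LHCGR turned to -0.16 at 0.5 times the resolution, where cycling stromal-like cells formed no cluster, so that their pairs had no value. The HLS minus LLS share of theca-like cells with LHCGR was 6.17 points without thinning, and granulosa-like cells with both receptors fell to 8 of 2619 after it (9.11 under independence). Genes called numbered 1 with DESeq2 in granulosa-like (THSD4), stromal-like (POPDC3) and perivascular-like cells (IGFBP2), and 4 in mural-like cells. Without the filter they numbered 48 in theca-like, 4 in perivascular-like, 48 in cumulus-like and 80 in mural-like cells. With HLS2 and LLS1 left out 1 passed in stromal-like cells (CALCB). The replicate block gave 54 in cumulus-like and 4 in mural-like cells; same-numbered ewes share only a number, with correlations of deviations from -0.20 to 0.29 in granulosa-like cells. Leaving out each ewe in turn, LHCGR ran from -1.98 to 1.94 in granulosa-like and from -1.61 to 0.16 in perivascular-like cells, and FSHR from -0.19 to 0.026 in cumulus-like and from -0.23 to 0.24 in mural-like cells. The counts then ran from 0 to 1 in theca-like (ASS1 without HLS3), 0 to 2 in stromal-like (CALCB and LOC105615767 without LLS1), 0 to 51 in cumulus-like (39 and 51 with 1 HLS ewe left, assumed to vary like the LLS ewes) and 0 to 3 in mural-like cells. LHCGR in stromal-like cells kept its sign, from -1.04 to -0.50, in theca-like cells from -0.40 to -0.12, and FSHR in granulosa-like cells from 0.16 to 0.43. The causes were not tested. With 3 ewes a group the exact tests cannot pass 0.05, and low levels of either receptor outside its main type rest on few UMI.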
